A study of Bos taurus with 22 samples.

Results

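ADAMTS4, ADAMTS14, THBS2 and VWA2 code for secreted proteins of the extracellular matrix, and these 4 of the 24616 Ensembl genes in the count table were read in the subcutaneous backfat of 22 steers. They were picked by name, and each had been selected on an earlier comparison of these same steers that listed it as differentially expressed (DE) between steers of low and high residual feed intake. ADAMTS4, THBS2 and VWA2 were chosen by that contrast in Charolais (CHAR) and ADAMTS14 by that contrast in Kinsella Composite (KC). In the contrast that chose a gene its values are therefore given as a description with no test, and tests are read in the breeds that did not choose it and between breeds.

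The study asked how breed and feed efficiency relate to the make-up of beef fat. RFIfat is residual feed intake adjusted for backfat thickness, in kg, and the steers with a low value (L-RFI) ate less than predicted while those with a high value (H-RFI) ate more. There were 8 steers of Angus (ANG), 6 of CHAR and 8 of KC, with as many H-RFI as L-RFI animals in a breed, and each gave 1 library. All were fed the same barley-based finishing diet and their fat was sampled after slaughter. In ANG the RFIfat was 0.75 to 1.64 kg in H-RFI and -1.13 to -0.75 kg in L-RFI steers. In CHAR it was 0.69 to 1.10 kg and -1.03 to -0.96 kg, and in KC, a crossbred herd that the labels give as Hereford by Angus, 0.54 to 2.03 kg and -1.77 to -0.80 kg. The study's methods describe KC otherwise, with bulls that were Angus, Charolais or of another composite and dams of mixed Hereford, Angus and Holstein origin, so that KC may share ancestry with ANG and with CHAR. An age for single steers was not given in the sources used here. The labels call the cells adipocytes, but the samples were pieces of backfat tissue, so that fewer cells of a type and less RNA per cell cannot be told apart in any value below.

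The matrix of fat is a mesh of collagens, proteoglycans and glycoproteins around adipocytes and blood vessels, and it is cut and rebuilt as the cells change in size. ADAMTS4 is a secreted metalloproteinase that cleaves large proteoglycans such as aggrecan and versican, and ADAMTS14 removes the amino-terminal propeptide from procollagen before fibrils form. THBS2 is a thrombospondin, a matricellular glycoprotein that restrains the growth of blood vessels and affects how collagen fibrils assemble, and VWA2 is a protein with von Willebrand factor A domains that lies beside basement membranes.

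The libraries held 8033008 to 12426133 reads on genes, with a median of 9803200. A level is given as TMM CPM, which is CPM after TMM scaling of the library. At these depths 3 counts, taken as the floor, stood for 0.241 to 0.373 CPM, which covers counting error only. Levels of the 4 genes are not compared with each other, because the counts were not divided by transcript length. The 4 genes are ENSBTAG00000013210 (ADAMTS4), ENSBTAG00000021177 (ADAMTS14), ENSBTAG00000018810 (THBS2) and ENSBTAG00000006860 (VWA2). In the RefSeq annotation of the build ARS-UCD2.0, later than the one used for the counts, no other gene overlapped any of them. There ADAMTS14 lies between the protein-coding genes PRF1 and TBATA, THBS2 between SMOC2 and WDR27, and VWA2 between TDRD1 and AFAP1L2. All 4 passed the low-count filter (CPM above 1 in 50% or more of a breed's steers) in each breed. ADAMTS14 was close to this limit, with 3 to 40 counts.

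ADAMTS4, the proteoglycan-cleaving protease, had 51 to 1003 counts. Among H-RFI steers of ANG it stood at 8.01 TMM CPM in F20, 14.5 in F21, 13.6 in F28 and 46.6 in F32, and among L-RFI steers at 47.1 in F18, 6.11 in F23, 12.4 in F24 and 22.8 in F25. In KC it was at 23.6 in F1, 87.3 in F7, 32 in F8 and 36.6 in F9 of the H-RFI group and at 70.6 in F10, 17.4 in F11, 25.4 in F14 and 40.5 in F16 of the L-RFI group. One or 2 steers thus stood high in each group of ANG and KC, and the groups overlapped over nearly their whole range. In CHAR, which chose the gene, the H-RFI steers were at 60.4 (F36), 25.3 (F43) and 44.9 (F48) and the L-RFI steers at 17.4 (F33), 16.7 (F46) and 19.0 (F47). All 3 L-RFI steers of CHAR lay below the H-RFI steers and close to each other, while the H-RFI steers were spread widely (43.5 ± 17.6 against 17.7 ± 1.21, SD, n = 3 each).

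ADAMTS14, the procollagen N-proteinase, was low throughout. In ANG it was at 0.763 TMM CPM (F20), 1.78 (F21), 0.716 (F28) and 1.26 (F32) in H-RFI and at 1.92 (F18), 1.56 (F23), 0.722 (F24) and 0.452 (F25) in L-RFI steers. In CHAR it was at 1.56 (F36), 0.847 (F43) and 0.655 (F48) in H-RFI and at 3.11 (F33), 1.56 (F46) and 0.544 (F47) in L-RFI steers. Both breeds showed overlapping groups, and the L-RFI steers of CHAR held both the highest and the lowest value of that breed. In KC, which chose the gene, the H-RFI steers were at 3.87 (F1), 2.52 (F7), 2.78 (F8) and 1.52 (F9) and the L-RFI steers at 1.19 (F10), 0.281 (F11), 1.59 (F14) and 0.701 (F16). Here 3 of 4 L-RFI values were below the whole H-RFI range and F14 was just above F9 (2.67 ± 0.968 against 0.939 ± 0.568, SD, n = 4 each). The value of F11 came from 3 counts and that of F25 from 4, so these levels are at or near the floor.

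THBS2, the thrombospondin, had 271 to 1309 counts. Its ANG values were 59.3 TMM CPM (F20), 65.6 (F21), 52.1 (F28) and 78.0 (F32) in H-RFI and 67.7 (F18), 32.5 (F23), 76.4 (F24) and 50.9 (F25) in L-RFI steers. In KC it was at 91.2 (F1), 111 (F7), 121 (F8) and 88.9 (F9) in H-RFI and at 96.5 (F10), 71.4 (F11), 111 (F14) and 74.6 (F16) in L-RFI steers. The RFI groups overlapped in both breeds, with 2 of 4 L-RFI values below the H-RFI range in each, and 6 of the 8 KC steers stood above all ANG steers. In CHAR, which chose the gene, the H-RFI steers were at 101 (F36), 116 (F43) and 106 (F48) and the L-RFI steers at 66.9 (F33), 47.4 (F46) and 40.3 (F47). The CHAR groups did not overlap (108 ± 7.39 against 51.5 ± 13.8, SD, n = 3 each), the H-RFI steers lying in the range of KC and the L-RFI steers in that of ANG.

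VWA2, the protein of basement membrane zones, had 46 to 169 counts. Its ANG values were 12.5 TMM CPM (F20), 10.5 (F21), 8.19 (F28) and 9.59 (F32) in H-RFI and 12.3 (F18), 6.11 (F23), 11.1 (F24) and 13.8 (F25) in L-RFI steers. In KC it was at 6.78 (F1), 4.09 (F7), 7.03 (F8) and 8.45 (F9) in H-RFI and at 9.20 (F10), 5.16 (F11), 8.78 (F14) and 8.41 (F16) in L-RFI steers. The RFI groups overlapped in both breeds, and 6 of the 8 ANG steers stood above all KC steers. In CHAR, which chose the gene, the H-RFI steers were at 13.9 (F36), 10.1 (F43) and 12.8 (F48) and the L-RFI steers at 5.78 (F33), 4.00 (F46) and 5.98 (F47). The CHAR groups did not overlap (12.2 ± 1.98 against 5.25 ± 1.09, SD, n = 3 each).

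**Figure D1:**
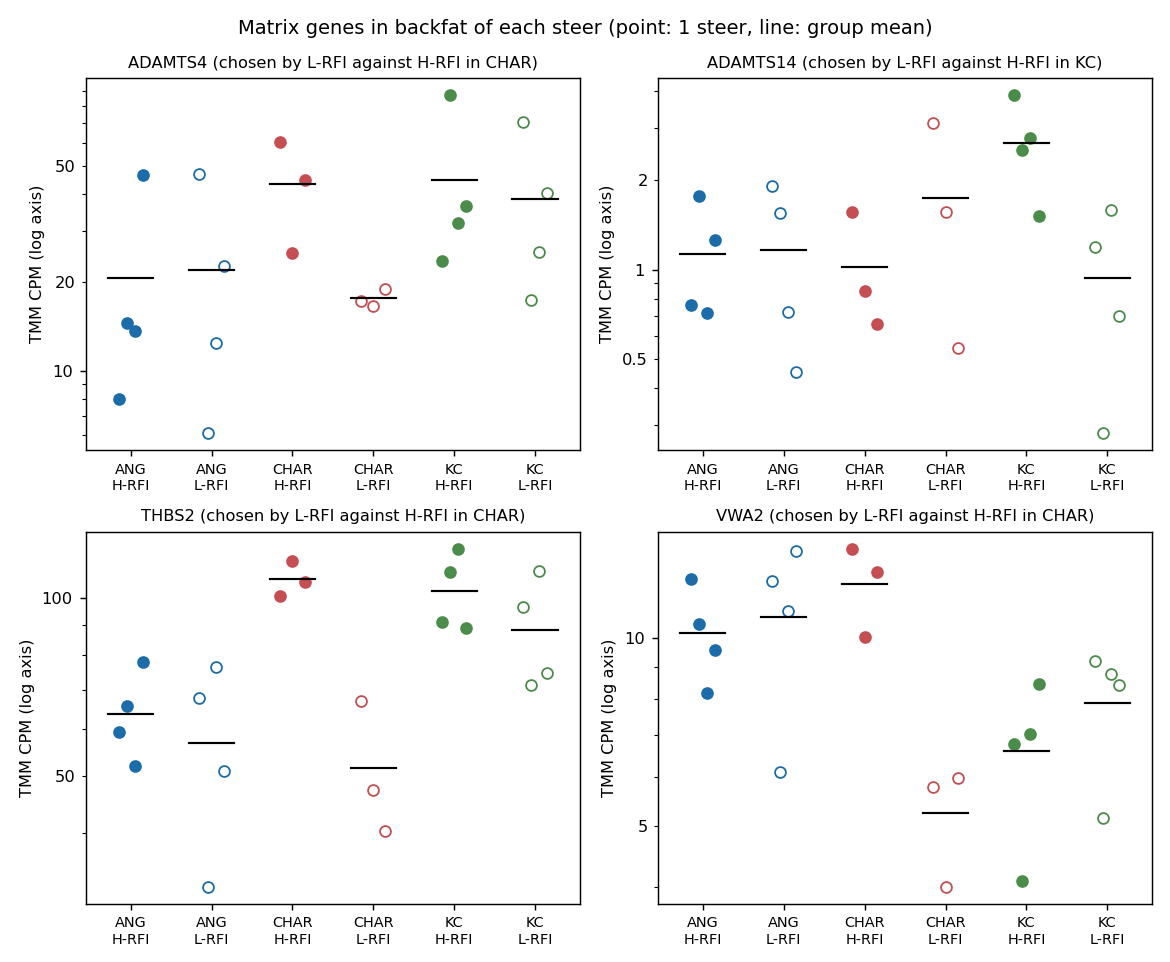
TMM CPM of the 4 genes on a log axis in the 6 groups of breed and RFI. Each point is 1 steer, filled for H-RFI and open for L-RFI, and the line is the group mean. The open CHAR points lie below the filled ones for ADAMTS4, THBS2 and VWA2, the genes that CHAR chose, and for THBS2 6 of 8 KC steers lie above all ANG steers.

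The question of the RFI contrast is whether efficient and inefficient steers differ within a breed. The log2 fold change (log2FC) is L-RFI against H-RFI from edgeR's quasi-likelihood fit, and a gene is called at an absolute log2FC of at least 1 with a false discovery rate (FDR) below 0.1 over all genes tested. As a description, the contrasts that chose the genes gave a log2FC of -1.30 for ADAMTS4, -1.06 for THBS2 and -1.22 for VWA2 in CHAR and -1.52 for ADAMTS14 in KC. THBS2 was thus the member nearest to the fold limit. With L-RFI lower, groups without overlap were found for 3 of the 4 genes in CHAR, against 4.94% of the 13737 genes tested there, but those 3 are the ones the contrast chose and nothing is read from the count. For none of the 4 did the groups lie apart in this direction in ANG (1.65% of 13613 genes) or in KC (5.60% of 13725 genes).

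In the breeds that did not choose them, none of the 4 genes was called. In ANG the log2FC was 0.10 for ADAMTS4 (95% interval -1.34 to 1.53), 0.06 for ADAMTS14 (-1.05 to 1.17), -0.16 for THBS2 (-0.70 to 0.37) and 0.10 for VWA2 (-0.45 to 0.64), with an adjusted p from 0.996 to 0.998. The sign for ADAMTS4 in ANG rested on single steers, as the log2FC was -0.59 without F18 and 0.89 without F32. The other signs in ANG turned too, to 0.029 for THBS2 without F23, -0.039 for VWA2 without F25 and -0.11 for ADAMTS14 without F28. In KC it was -0.22 for ADAMTS4 (-1.28 to 0.83, adjusted p = 0.840), -0.22 for THBS2 (-0.59 to 0.15, adjusted p = 0.510) and 0.25 for VWA2 (-0.33 to 0.84, adjusted p = 0.648). The sign for ADAMTS4 in KC turned without F7 (0.32), without F11 (0.028) and with RFIfat in kg as regressor (0.035 per kg of lower RFIfat). For THBS2 and VWA2 the intervals in ANG and KC stopped short of a 1-unit log2 change in either direction, while for ADAMTS4 in ANG and KC and for ADAMTS14 in ANG they reached past -1, and in ANG past 1 for both, so that a change of that size is within the interval. ADAMTS14 in CHAR had a log2FC of 0.76 (-0.72 to 2.23, adjusted p = 0.971), the sign opposite to that in KC. Leaving out 1 steer gave 0.53 to 1.16 in the fits where it passed the low-count filter.

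Exact permutation tests of log2(TMM CPM + 0.5) compared the same RFI groups. In ANG the 2-sided exact p was 0.971 for ADAMTS4, 0.971 for ADAMTS14, 0.571 for THBS2 and 0.914 for VWA2. In KC the exact p was 0.714 for ADAMTS4, 0.286 for THBS2 and 0.429 for VWA2, where 4 steers against 4 can reach 0.0286. For ADAMTS14 in CHAR the exact p was 0.6, and 3 steers against 3 cannot go below 0.1. These 8 tests were not adjusted, as none was under 0.05 before adjustment.

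How many genes these contrasts called depended on the test and the fit. The quasi-likelihood test called 0% of the genes tested for ANG, likewise 0% for CHAR, and 0.00729% of those in KC, which is 1 gene. Genes with an unadjusted p under 0.05 numbered 686 (ANG), 637 (CHAR) and 2504 (KC), and DESeq2 called 33, 24 and 189 with the same cut-offs. The exact test of edgeR called 46, 39 and 177. In KC the quasi-likelihood test called 0 to 54 genes with 1 steer left out and 111 in the fit of all 22 steers. For the members in the breeds that did not choose them, neither DESeq2 nor edgeR's exact test made a call.

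**Figure D2:**
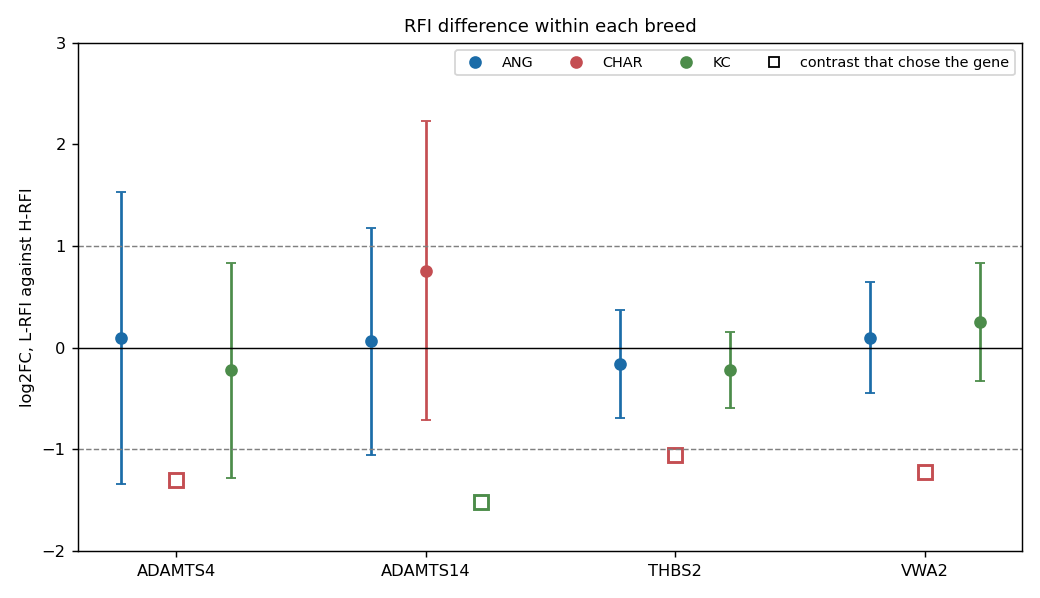
Log2FC of L-RFI against H-RFI steers for each gene and breed, with the 95% interval of the quasi-likelihood fit. Open squares are the contrasts that chose a gene and carry no interval, dashed lines mark the fold limit of 1 in either direction, and every interval shown includes 0.

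In a fit of all 22 steers over 14048 genes, the 2 breeds that did not choose a gene were averaged. The mean RFI effect over ANG and KC was -0.06 for ADAMTS4 (95% interval -0.91 to 0.79, adjusted p = 0.958), -0.19 for THBS2 (-0.51 to 0.13, adjusted p = 0.551) and 0.17 for VWA2 (-0.20 to 0.54, adjusted p = 0.663). For ADAMTS14 the mean over ANG and CHAR was 0.41 (-0.46 to 1.27, adjusted p = 0.999), and it was 0.053 without F33 and 0.64 without F36. The sign for ADAMTS4 over ANG and KC also rested on single steers (-0.41 without F18, 0.33 without F32). None was called, like 0% of all genes in either combination. At an unadjusted p under 0.05 the fit gave 2331 genes over ANG and KC and 644 over ANG and CHAR, and DESeq2 called 26 and 16. The RFI effects of KC and ANG differed by -0.32 for ADAMTS4 (adjusted p = 0.926), -0.06 for THBS2 (adjusted p = 0.967) and 0.16 for VWA2 (adjusted p = 0.911), and those of CHAR and ANG by 0.69 for ADAMTS14 (adjusted p = 0.999). Each sign turned in a fit with 1 steer left out. The differences were then 0.37 for ADAMTS4 (without F18) and 0.12 for THBS2 (without F24). They were -0.032 for VWA2 (without F23) and -0.010 for ADAMTS14 (without F33), which was 1.15 without F36. The difference test called 0% of genes for either pair, with 1275 and 644 genes at an unadjusted p under 0.05 and 18 and 4 genes called by DESeq2. Whether the effect in CHAR differed from that in ANG or KC for the 3 genes chosen in CHAR was not tested, because that choice had used it.

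Breed was not used to choose the genes, and THBS2 differed between KC and ANG. Its level was 95.7 ± 17.8 TMM CPM in KC and 60.3 ± 15.1 in ANG (SD, n = 8 each), a log2FC of 0.66 with both RFI groups weighted equally (standard error 0.15, 95% interval 0.35 to 0.98, adjusted p = 0.0407). The FDR limit was passed and the fold limit of 1 was not, so that THBS2 is not a DE gene by both cut-offs. It was 1 of 4 members past the FDR limit in this pair, beside 5.66% of the 14048 genes, and 0 of 4 passed both limits, beside 0.420% of genes. It passed the FDR limit in each of the 22 fits that left out a steer (0.57 to 0.75, adjusted p from 0.0235 to 0.0798). In H-RFI steers alone the difference was 0.69 (adjusted p = 0.1004) and in L-RFI steers alone 0.64 (adjusted p = 0.277), so that neither smaller comparison passed. CHAR lay in between at 79.6 ± 32.3 (SD, n = 6), with its RFI groups apart. Neither of its differences passed the FDR limit, at 0.31 for CHAR against ANG (adjusted p = 0.417) and 0.36 for KC against CHAR (adjusted p = 0.168), though the latter did without F33 (0.47, adjusted p = 0.0885). As a description with no test, since the RFI groups of CHAR chose THBS2, CHAR against ANG was -0.14 in L-RFI steers alone and KC against CHAR -0.063 in H-RFI steers alone.

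VWA2 had the opposite order of breeds. It was at 10.5 ± 2.5 TMM CPM in ANG (n = 8), 8.75 ± 4.09 in CHAR (n = 6) and 7.24 ± 1.83 in KC (SD, n = 8). KC against ANG gave a log2FC of -0.54 (standard error 0.18, 95% interval -0.91 to -0.17), and its adjusted p of 0.102 lay just outside the FDR limit. The differences with CHAR did not pass it either, at -0.39 for CHAR against ANG (adjusted p = 0.378) and -0.15 for KC against CHAR (adjusted p = 0.638). For KC and ANG, DESeq2 was inside the limit (-0.55, adjusted p = 0.0533), as was the quasi-likelihood test without F9 (-0.62, adjusted p = 0.0744), F23 (-0.64, adjusted p = 0.0631) or F32 (-0.56, adjusted p = 0.0857). These were 3 of the 22 fits that left out a steer, and the others did not pass (adjusted p up to 0.192). As a description with no test, since the RFI groups of CHAR chose VWA2, KC against CHAR was -0.89 with H-RFI steers alone but 0.58 with L-RFI steers alone, and CHAR against ANG was 0.27 in H-RFI steers alone, the sign opposite to that over both groups.

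The means of the proteases over both RFI groups were ordered like those of THBS2, with none of the pairs past the FDR limit. ADAMTS4 was at 41.7 ± 24.6 TMM CPM in KC (n = 8), 30.6 ± 18 in CHAR (n = 6) and 21.4 ± 16.5 in ANG (SD, n = 8). KC against ANG gave 0.95 (standard error 0.41, 95% interval 0.09 to 1.80, adjusted p = 0.198), and without the high ANG steer F32 1.34 with an adjusted p of 0.0546. Without the high KC steer F7 the difference was 0.68. Of the 22 fits that left out a steer, 1 passed the FDR limit, that without F32 (adjusted p up to 0.398 in the others). CHAR against ANG gave 0.37 (adjusted p = 0.762) and KC against CHAR 0.58 (adjusted p = 0.417). ADAMTS14 was at 1.81 ± 1.18 in KC (n = 8), 1.38 ± 0.958 in CHAR (n = 6) and 1.15 ± 0.557 in ANG (SD, n = 8), with a log2FC of 0.44 for KC against ANG (adjusted p = 0.549), 0.23 for CHAR against ANG (adjusted p = 0.851) and 0.21 for KC against CHAR (adjusted p = 0.782). For ADAMTS14, KC against CHAR ranged from 0.0060 without F47 to 0.56 without F33, and CHAR against ANG was -0.12 in H-RFI steers alone (adjusted p = 0.986) and without F33. As a description with no test, since the RFI groups of KC chose ADAMTS14, in L-RFI steers alone it was at -0.35 for KC against ANG and -0.93 for KC against CHAR. Likewise ADAMTS4, chosen by the RFI groups of CHAR, was at -0.33 for CHAR against ANG in L-RFI steers alone. In the pairs with CHAR, 0 of the 4 genes passed the FDR limit, beside 1.21% of all genes for CHAR against ANG and 16.8% for KC against CHAR. With the fold limit as well, these shares were 0.242% and 1.80%.

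**Figure D3:**
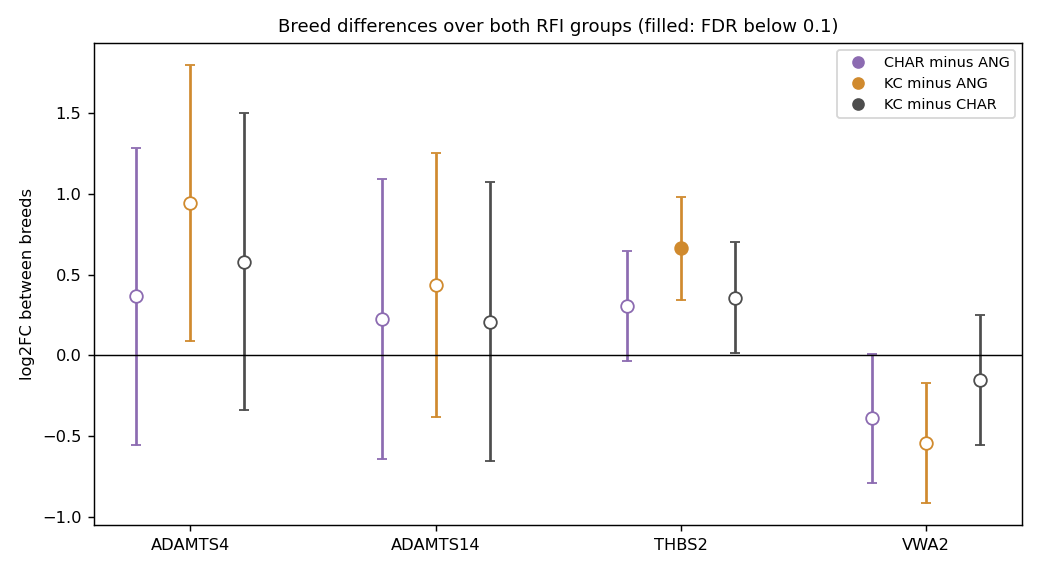
Log2FC between breeds for each gene, over both RFI groups, with the 95% interval of the fit of 22 steers. The 1 filled point, at an FDR below 0.1, is THBS2 in KC against ANG at 0.66, and VWA2 lies below 0 in all pairs.

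The counts hold 1 technical trait that splits the steers. Reads that the counter could not assign to a single gene came to 0.814% to 1.26% of the reads on genes in 6 steers (F8, F10 and F14 of KC and F18, F25 and F28 of ANG) and to 2.45% to 6.29% in the other 16, which include all CHAR steers. The labels give no batch and do not say what this trait reflects. Between these sets no member passed the FDR limit (adjusted p from 0.965 to 0.988), like 0 of all genes. The difference of THBS2 between KC and ANG was 0.93 within the 6 steers (3 against 3) and 0.48 within the 10 ANG and KC steers of the other set (5 against 5), with an adjusted p of 0.452 and 0.467 in these smaller fits, and 0.65 with the set as a term (adjusted p = 0.0444).

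The 4 genes varied unequally between steers. Over all 22 steers and groups, the highest exceeded the lowest 14.3-fold for ADAMTS4, 3.73-fold for THBS2 and 3.48-fold for VWA2. For ADAMTS14 the ratio was 13.8, but its lowest value is at the floor of 3 counts, so that this is no exact fold. For ADAMTS14 and VWA2 the extremes lie on either side of the contrast that chose the gene. On the scale of log2(TMM CPM + 0.5), the SD within the groups was 0.89 for ADAMTS4, 0.59 for ADAMTS14, 0.33 for THBS2 and 0.36 for VWA2, where the median over all 14048 genes was 0.26. Among the 2746 genes within 0.5 log2 units of its mean level, 99.4% had a smaller SD than ADAMTS4. For THBS2 88.9% of 1886 such genes had a smaller SD, for ADAMTS14 74.9% of 1277 and for VWA2 69.98% of 2005.

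Divided by source, 64.1% of the sum of squares of ADAMTS4 lay between steers of the same breed and RFI group, 24.5% between breeds and 11.3% between the RFI groups of a breed. For ADAMTS14 the same shares were 60.2%, 6.39% and 33.4%, and for VWA2 39.4%, 20.5% and 40.1%. THBS2 was split about evenly, with 31.5% within groups, 33.5% between breeds and 35.0% between RFI groups. The part between RFI groups holds the contrast that chose each gene and is a description. No share was tested or adjusted for the number of groups, so a share alone does not show a difference.

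**Figure D4:**
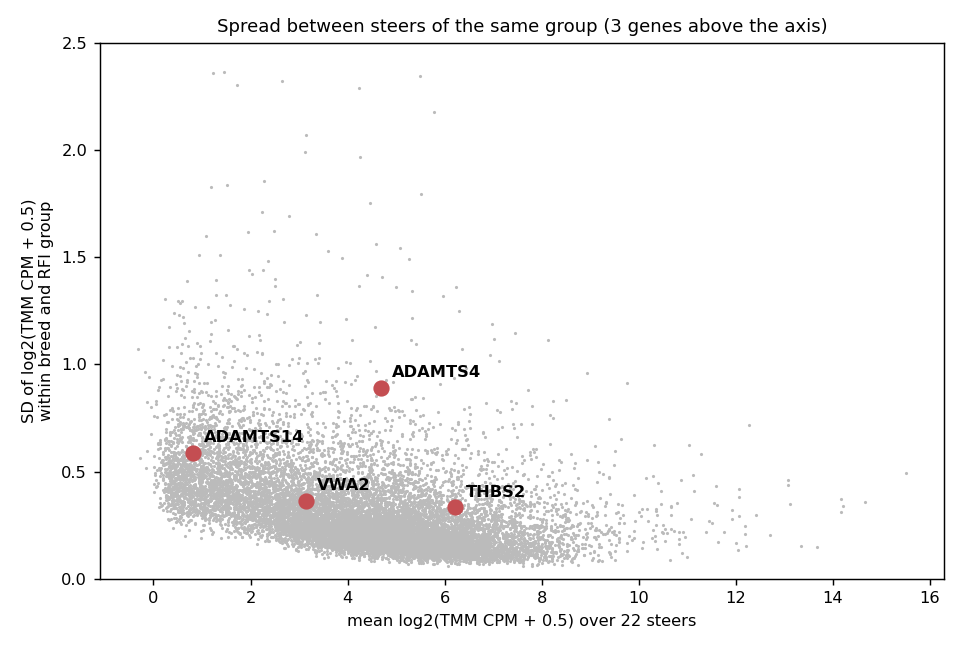
Each grey point is 1 of 14048 genes, with its mean log2(TMM CPM + 0.5) over 22 steers on the x axis and its SD within breed and RFI group on the y axis, and 3 genes lie above the axis. ADAMTS4 lies at the upper edge of the genes of its level, with an SD of 0.89.

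The members were compared with each other after centring on the 6 group means, which takes out the contrasts that chose them. Over 22 steers and 6 pairs, Pearson's r was highest for ADAMTS4 with THBS2 (r = 0.44, permutation p = 0.118, Spearman's rho = 0.29, permutation p = 0.249). The next were ADAMTS14 with THBS2 (r = 0.38, permutation p = 0.181, rho = 0.50, permutation p = 0.0677) and THBS2 with VWA2 (r = 0.38, permutation p = 0.210, rho = 0.19, permutation p = 0.471). ADAMTS4 with VWA2 gave r = 0.27 (permutation p = 0.341, rho = 0.26, permutation p = 0.319), ADAMTS4 with ADAMTS14 r = 0.17 (permutation p = 0.498, rho = 0.12, permutation p = 0.631) and ADAMTS14 with VWA2 r = 0.01 (permutation p = 0.960, rho = -0.03, permutation p = 0.917). After Benjamini-Hochberg adjustment over the 6 pairs none was under 0.05, the smallest adjusted permutation p being 0.421 for r and 0.406 for rho.

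Several of these values rested on F23, an L-RFI steer of ANG that was lowest of all 22 for ADAMTS4 and THBS2 and lowest of ANG for VWA2. Without F23, r of THBS2 with VWA2 was 0.02 and r of ADAMTS4 with THBS2 was 0.22, while r of ADAMTS14 with THBS2 was 0.67. For ADAMTS4 with VWA2, r was 0.013 without F23 and 0.54 without F7. Leaving out the 2 steers whose levels, before centring, were farthest from the median of the first gene gave an r of 0.19 for ADAMTS4 with THBS2, 0.33 for ADAMTS4 with VWA2, 0.33 for ADAMTS4 with ADAMTS14, 0.38 for ADAMTS14 with THBS2, -0.21 for ADAMTS14 with VWA2 and 0.11 for THBS2 with VWA2. With the 2 farthest steers taken from the centred values, a choice made after seeing the data, these were 0.27, 0.29, -0.027, 0.23, 0.042 and 0.075 in the same order.

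The genes most like each member were looked up among the 233 other genes that have a symbol and passed the filter, by Pearson's r of the same centred values over 22 steers, as a description. For ADAMTS4 they were CA4 (r = 0.64), RHPN2 (0.64), PIM1 (0.63), RGS16 (0.62) and CD1E (0.61), and the least like were FAM13C (-0.59) and METTL4 (-0.59). For ADAMTS14 they were CD1E (0.63), AMPD3 (0.53), CLEC10A (0.52), the transmembrane collagen COL13A1 (0.49) and DLK1 (0.48), with ZMAT1 (-0.52) and LEPR (-0.60) at the other end. CD1E was thus among the 5 nearest to both proteases.

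For THBS2 genes among the 5 nearest were NFASC (0.51), ALPK3 (0.50), CYP26B1 (0.50) and MT1A (0.49), and the farthest HDC (-0.45) and PIPOX (-0.61). For VWA2 they included KCNT2 (0.66), OTOGL (0.58), CA4 (0.55) and the basement membrane gene FREM1 (0.53), with BDH1 (-0.61) and HOGA1 (-0.63) at the other end. Over all 14047 other genes, with or without a symbol, 0.171% had a higher r with VWA2 than KCNT2 did, and 1.51% had a higher r with THBS2 than NFASC did. No other member was among the 5 nearest of any member.

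Most genes of the matrix could not be put beside these 4, because the count table has identifiers without symbols. Of 120 genes on 13 lists of matrix biology, 5 could be matched, the 4 members and FREM1, so these lists are not described further. Among the genes with a symbol, 22 code for matrix proteins, their proteases, hyaluronan enzymes or matrix receptors, the members included, and each had been listed as DE in these steers in at least 1 breed. This set was put together with those results known and after the values of its genes were seen, so its counts and medians are a description. In the breeds that had not listed a gene, 8 of 15 genes tested were lower in L-RFI steers of ANG (median log2FC -0.16), 12 of 15 in CHAR (median -0.56) and 9 of 11 in KC (median -0.22). Over all genes tested, 50.9%, 50.6% and 49.9% were lower, with medians of -0.00, -0.00 and 0.00.

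None of these matrix genes was called outside the breed that listed it, and 1 had an unadjusted p under 0.05, FREM1 in CHAR (log2FC -0.77, adjusted p = 0.947). Of all genes, the quasi-likelihood test called 0% in ANG, 0% in CHAR and 0.00729% in KC. It gave an unadjusted p under 0.05 for 5.04%, 4.64% and 18.2% of all genes in the same order. FREM1 codes for a basement membrane protein, and in KC, which had listed it, its log2FC was 1.51. The hyaluronan synthase gene HAS2 had a log2FC of -0.85 in CHAR and -0.40 in KC, and the integrin gene ITGA5 -0.94 in ANG and -0.56 in CHAR, none of them past the limits (adjusted p from 0.571 to 0.979). RELN and COL4A5, for reelin and a basement membrane collagen chain, were listed with higher values in L-RFI steers, RELN at 1.25 in KC and COL4A5 at 1.28 in CHAR. In the other breeds RELN gave 0.07 (ANG) and 0.94 (CHAR) and COL4A5 -0.50 (ANG) and 0.00 (KC).

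**Figure D5:**
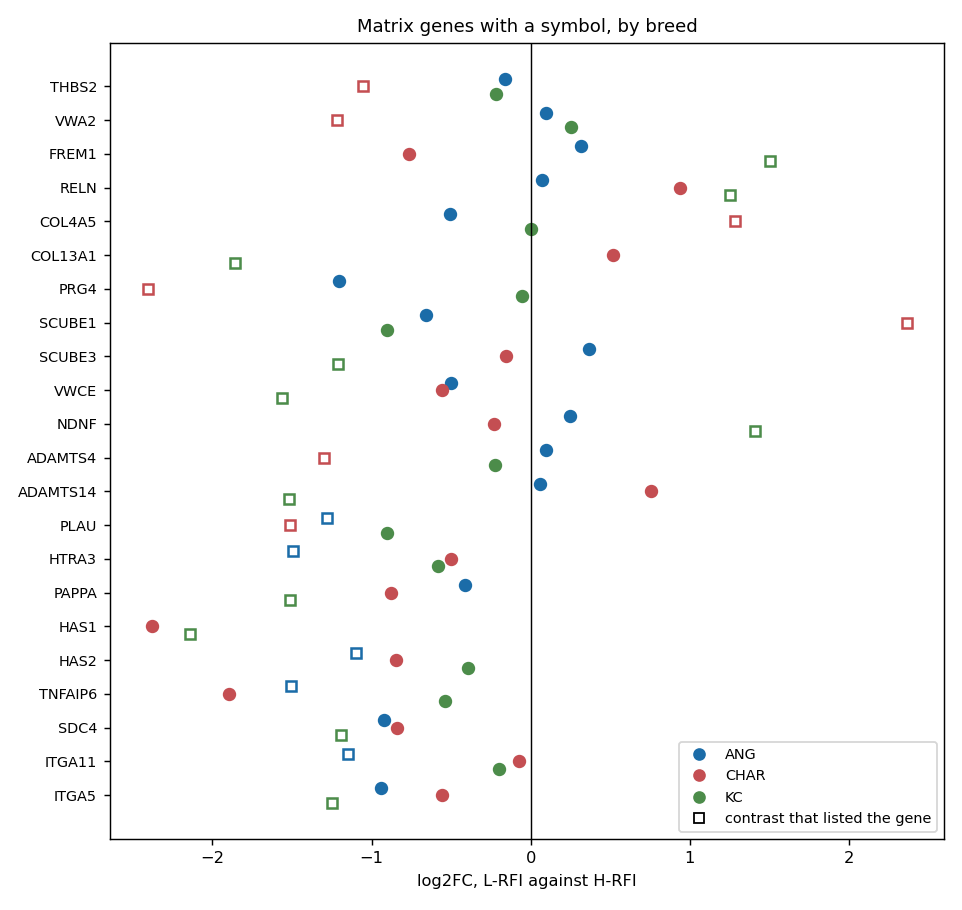
Log2FC of L-RFI against H-RFI steers in each breed for 22 matrix genes with a symbol. Open squares are the contrasts that had listed a gene and filled circles the other breeds, where the circles of CHAR are below 0 for 12 of 15 genes and those of ANG for 8 of 15.

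Between breeds, the same 22 genes had a median log2FC of 0.44 for KC against ANG, 0.58 for KC against CHAR and 0.01 for CHAR against ANG, where the median of all 14048 genes was 0.00 in each pair. These values are a description, because each gene was listed by an RFI contrast of steers that enter the breed means. The KC contrast had listed 11 of the 22, 8 of them lower in L-RFI than in H-RFI steers. The shares of all genes past the FDR limit in these pairs were 5.66%, 16.8% and 1.21%. For KC against ANG 17 of the 22 were higher in KC and 2 of them passed the FDR limit, THBS2 and VWCE, which codes for a protein with von Willebrand factor C and EGF domains (log2FC 1.92, standard error 0.27, adjusted p = 0.00537). The KC contrast had listed VWCE, while THBS2 was listed in neither KC nor ANG. VWA2 was among the 5 that were lower in KC. For KC against CHAR 18 were higher, 4 of them past the FDR limit. Of the 4 lower genes 1 passed it, COL4A5 (-0.70, adjusted p = 0.0526). CHAR had listed COL4A5, at 28.4 TMM CPM in its H-RFI and 68.5 in its L-RFI steers, against 27.2 in both KC groups. The COL4A5 difference is therefore a description. The lubricant proteoglycan gene PRG4, which CHAR had listed too, had the largest difference of KC against CHAR (2.41, adjusted p = 0.0299). For CHAR against ANG 11 were higher and 11 lower, with none past the limit.

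Markers of the cells in fat could be read in part, with 5 of 76 marker genes on 4 of 11 lists matched to an identifier, not all of them named here. The 9 adipocyte markers were not analysed here, so the label could not be checked against them. In CHAR, where 3 of the members were chosen, the smooth muscle markers ACTA2 and DES had also been listed, with the sign opposite to the members. Their summed level was 83.5 (F36), 124 (F43) and 174 (F48) TMM CPM in H-RFI and 662 (F33), 312 (F46) and 200 (F47) in L-RFI steers, of which ACTA2 held the larger share of reads by group mean.

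This sum was thus higher in all 3 L-RFI steers of CHAR, in which ADAMTS4, THBS2 and VWA2 were lower, and its part in the lower values was not tested. By gene, the CHAR groups lay apart for ACTA2, at 61.4 to 114 TMM CPM in H-RFI and 154 to 345 in L-RFI steers. For DES they overlapped, at 22.1 to 60.3 in H-RFI and 46.1 to 316 in L-RFI steers. PI16, a marker of fibroblasts and adipocyte progenitors, was at 53.5 to 135 TMM CPM in H-RFI and 66.8 to 118 in L-RFI steers of CHAR, and the mast cell gene HDC at 1.15 to 10.5 and 1.04 to 3.70, both with overlapping groups (adjusted p = 0.981 and 0.966). In KC, ACTA2 had a log2FC of -0.43 (adjusted p = 0.415), DES -0.35 (adjusted p = 0.586), PI16 -0.47 (adjusted p = 0.655) and HDC -0.62 (adjusted p = 0.550). In ANG, ACTA2 was at -0.05 (adjusted p = 0.996) and DES at -0.17 (adjusted p = 0.996), while PI16 (-1.21) and HDC (-1.92, groups without overlap) had been listed by that contrast and are given as a description. No matched marker was at 0 counts in a whole group.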

How the data were processed

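RNA-Seq counts of subcutaneous backfat from 22 steers were used. Libraries were stranded and free of ribosomal RNA, and the authors trimmed the paired reads, mapped them to UMD3.1, a bovine assembly (TopHat2 2.0.9, SAMtools 1.1, as named in the submitters' processing notes) and deposited read counts per Ensembl gene from HTSeq 0.6.1, not normalized. The annotation release and the strand setting of the counting were not given in the sources used here. The 5 summary lines of the counter were kept out of library sizes and tests. They hold reads outside genes (57.1% to 63.5% of the reads on genes, outside genes or ambiguous) and ambiguous reads (0.814% to 6.29% of the reads on genes). No 2 columns were identical. The labels number each steer separately, so no block was fitted, and they name no batch.

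After TMM scaling, the counts went into edgeR's quasi-likelihood test (R 4.3.3, edgeR 4.0.16, limma 3.58.1), L-RFI against H-RFI within each breed, and in a fit of all 22 steers with 6 group means for breed differences and for effects over 2 breeds. A gene was tested where CPM exceeded 1 in 50% or more of a breed's steers (of any 1 breed, for the fit of all steers). Adjusted p-values are Benjamini-Hochberg values over all genes tested. Levels are TMM CPM from the fit of all steers, and log2 values had a pseudocount of 0.5. Permutations of correlations were made within the 6 groups (100000 resamples). The fits were tested on simulated data. Alternatives were RLE factors, DESeq2 1.42.0, edgeR's exact test, no filter, RFIfat as regressor, RFI groups alone, and leaving out each steer, with the ambiguous share and the choice of the 2 farthest steers by centred values added after seeing the data. Figures used python 3.11.15 and matplotlib 3.10.9.

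The members and the gene lists were chosen with earlier results of these data known. Symbols came from the study's list of DE genes, which gave 234 usable symbols, so that all likeness values are among genes listed as DE in some breed. Genes named beside the members are, for each member, the 5 with the highest and the 2 with the lowest r, and the called genes, else the highest in level and the lowest in p, of each list. Some genes that this rule takes are not reported by name. The 22 matrix genes and the examples among them were chosen after their values were seen.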

Additional observations from a re-analysis of the deposited data

Results flagged for a closer look

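ADAMTS4 in the H-RFI steers of ANG had 1 steer far from the others. F32 was at 46.6 TMM CPM and the next steer at 14.5, a gap of 0.831 of the range of the group, just over the limit for 4 steers. It was the 1 such case among the 16 combinations of the 4 genes with the 4 groups of 4 steers, and chance alone gives about 1 in 20 for normally distributed values. The gap was taken on TMM CPM and was not examined on the log2 scale of the permutation tests. The L-RFI steer F18 of the same breed had a like level (47.1), and without F32 the log2FC in ANG was 0.89 in place of 0.10, with no call in either fit. The groups of 3 steers in CHAR were not examined this way. Between breeds that did not choose a gene, no difference of its RFI effect passed the FDR limit.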

How the results depend on the processing

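RLE factors and the absence of a low-count filter changed no sign, call or count beyond 1.5 times. With DESeq2 the genes called by RFI were 33 in ANG, 24 in CHAR and 189 in KC, 26 over ANG and KC and 16 over ANG and CHAR, those for the differences of the RFI effect 18 (KC and ANG) and 4 (CHAR and ANG), and those for CHAR against ANG 105. It gave -0.55 for VWA2 in KC against ANG (adjusted p = 0.0533). The exact test of edgeR called 46 genes (ANG), 39 (CHAR) and 177 (KC), and the fit of all 22 steers 1 in CHAR and 111 in KC. With RFIfat in kg as regressor the sign of ADAMTS4 turned in KC (0.035 per kg of lower RFIfat) and over ANG and KC (0.059), and 0 genes passed the FDR limit in KC.

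In H-RFI steers alone CHAR against ANG gave -0.12 for ADAMTS14, 0.27 for VWA2 and 0 genes called, KC against ANG 0.69 for THBS2 (adjusted p = 0.1004) and 98 genes, and KC against CHAR -0.063 for THBS2 and -0.89 for VWA2. Where these splits use the breed that chose the gene, they are a description. In L-RFI steers alone CHAR against ANG gave -0.33 for ADAMTS4, -0.14 for THBS2 and 7 genes, KC against ANG -0.35 for ADAMTS14, 0.64 for THBS2 (adjusted p = 0.277) and 1 gene, and KC against CHAR -0.93 for ADAMTS14, 0.58 for VWA2 and 28 genes. These fits hold fewer steers, and the cause of the other changes was not tested.

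With the ambiguous share as a term, added after seeing the data, 17 genes were called for CHAR against ANG. For RFI the term was fitted in all 22 steers, where 1 gene was called in CHAR, as without it, and 49 in KC in place of 111, and in ANG the log2FC was -0.20 for ADAMTS4 and -0.028 for ADAMTS14. Within the low share KC against ANG gave 0.93 for THBS2 (adjusted p = 0.452) and 1 gene, and within the high share 0.48 (adjusted p = 0.467) and 3 genes. Over all alternatives the sign of THBS2 in KC against ANG was positive. For ADAMTS14 with VWA2, rho was -0.028 and r centred within breed alone -0.21, and for ADAMTS4 with ADAMTS14 r was -0.027 without the 2 steers farthest in centred values, an alternative added after seeing the data.

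Leaving out each steer gave, for RFI in ANG, -0.59 to 0.89 for ADAMTS4, -0.11 to 0.32 for ADAMTS14 (in the 4 of 8 fits where it passed the filter), -0.34 to 0.029 for THBS2, -0.039 to 0.29 for VWA2 and 0 to 1 genes called. In CHAR, ADAMTS14 passed in 3 of 6 fits, with 0.53 to 1.16, and 0 to 1 genes were called. In KC ADAMTS4 ranged from -0.69 to 0.32, THBS2 from -0.34 to -0.12, VWA2 from 0.081 to 0.42 and genes called from 0 to 54. Over ANG and KC it was -0.41 to 0.33 for ADAMTS4 and 0 to 43 genes, and over ANG and CHAR 0.053 to 0.64 for ADAMTS14 and 0 to 2 genes. The difference of the RFI effect was -1.11 to 0.37 for ADAMTS4, -0.25 to 0.12 for THBS2, -0.032 to 0.32 for VWA2 and -0.010 to 1.15 for ADAMTS14, with 0 to 2 genes for CHAR and ANG.

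Between breeds, leaving out each steer gave for KC against ANG 0.68 to 1.34 for ADAMTS4 and 0.26 to 0.62 for ADAMTS14. In that pair VWA2 ranged from -0.64 to -0.46 and the genes called from 24 to 127. CHAR against ANG gave 0.21 to 0.76 for ADAMTS4, -0.12 to 0.43 for ADAMTS14, 0.19 to 0.39 for THBS2 and 0 to 67 genes. KC against CHAR gave 0.31 to 0.74 for ADAMTS4, 0.28 to 0.47 for THBS2, 0.0060 to 0.56 for ADAMTS14 and -0.24 to -0.068 for VWA2. The r of ADAMTS14 with VWA2 was -0.18 to 0.16. The low counts of ADAMTS14 limit what can be read for it, and 3 or 4 steers a group limit all RFI contrasts.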
